A study of Mus musculus with 12 samples.

Results

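Pou6f1, Prdx2, Slc25a18 and Tomm22 are 4 genes whose array signal fell into 2 separate levels among mice of the same treatment and tissue. They were chosen by their array-by-array signals, the values given below, so the levels are described without a test. All probes carrying these symbols were followed, 6 of the 25697 probes and 4 of the 18097 gene symbols measured, on each of 12 Illumina MouseRef-8 arrays. The arrays came from the hippocampus and the cortex of aged male 3xTgAD mice, a triple-transgenic model of Alzheimer's disease that carries human mutant amyloid precursor protein and tau transgenes together with a mutant presenilin gene. The AMI mice drank amitriptyline-hydrochloride, a tricyclic antidepressant, at 100 µg per g body weight for 4 months from 14 months of age, while the vehicle mice drank water alone. Tissue was taken at 18 months, and mice of both treatments had also received bromodeoxyuridine, a label of dividing cells. Each of the 4 groups of treatment and tissue held 3 arrays, and all mice carried these mutant genes, so no wild-type mice were on the arrays. Which mouse gave which array is not stated, so same-numbered arrays of the hippocampus and the cortex may or may not share an animal, and p-values measure the spread between these arrays.

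The 4 genes serve different parts of the cell. Pou6f1 encodes a POU-domain homeobox transcription factor of neurons. Prdx2 encodes a cytosolic peroxiredoxin, an enzyme that reduces hydrogen peroxide and is restored by thioredoxin, and it is abundant in neurons and red cells. Slc25a18 encodes a carrier of the inner mitochondrial membrane that brings glutamate into mitochondria and is most used in brain by astrocytes. Tomm22 encodes the central receptor of the TOM complex, the gate in the outer mitochondrial membrane through which proteins made in the cytosol are imported.

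Each signal came from a single 50-base probe, so the identity of the probe matters to each reading. The first 30 bases of each are given below, 5′ to 3′, because the 2 levels followed the probe rather than the whole gene in Prdx2, and in Atf4 as described later. No part is capitalised.
Pou6f1 ILMN_2589318: ttgtgttcttgaaaagccagtcaccttcct
Prdx2 ILMN_2773554: aagggtgtccttcgccagatcacagtcaat
Prdx2 ILMN_2638354: gcttgtgcaactgactctgtagttatgcct
Prdx2 ILMN_1242829: ctgagcatggtgggacacagtgagaccaaa
Slc25a18 ILMN_2704027: atcctaaccttgccgccctaacagatcaga
Tomm22 ILMN_2507182: gagtacagaagtcaccaggaatcccagaga
Atf4 ILMN_1223734: tcgagttaagcacattcctcgaatccagca

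The annotation columns of the tables placed the Pou6f1 probe on the minus strand of chr15:100405881-100405930 (band 15qF1), starting at base 4393 of its transcript. The Tomm22 probe lay on the plus strand of the same chromosome, at chr15:79503114-79503163 (15qE1) and base 846. The Slc25a18 probe lay at chr6:120743980-120744029 (plus strand, 6qF1, base 1537). The outer pair of Prdx2 probes lay at chr8:87864469-87864518 and chr8:87864541-87864590 (plus strand, 8qC3, bases 1019 and 1091), with 22 bases between them. The inner Prdx2 probe started at base 524 of the transcript and had a band but no coordinates. Its base was counted on a later version of the transcript record than those of the outer pair. The names inner and outer rest on these bases, although the versions may number them differently. The genome build of these coordinates is not given in the sources used here.

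The arrays detected a similar share of probes but differed in brightness. Between 12588 and 13280 probes per array (49.0% to 51.7%) had a detection p of 0.05 or less, which is the scanner software's test of a signal against negative control beads and is called detected below. The median signal of undetected probes was 52.2 to 73.2, so a signal in this range is background and sets only an upper bound on a gene's level. The median signal of detected probes was 161.6 on hippocampal AMI array 1 and 188.3 on hippocampal vehicle array 1. It was 192.5 to 329.6 on the other arrays, and the SD of log2 signals was 1.42 to 1.85 over all arrays. Log2 signals of arrays of the same group correlated across probes with r between 0.986 and 0.994. The level of a probe below is its log2 signal after z normalization of each array, and the 2 levels are the arrays above and below the widest gap in the 12 sorted levels, with at least 2 arrays on each side. Of the markers that tell the tissues apart, both tested dentate granule cell genes were higher in the hippocampus and all 4 tested striatal genes were lower there, each at an adjusted p under 0.05 by limma. The hippocampal and cortical arrays were read out by separate software exports, so tissue and export cannot be told apart.

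Pou6f1 had the widest separation among the 4 genes. In the hippocampus its signal was 418, 93.9 and 59.3 on vehicle arrays 1 to 3, and 52.3, 916 and 50.9 on AMI arrays 1 to 3. In the cortex it was 596, 61.9 and 58.7 on the vehicle arrays, and 472, 72.6 and 665 on the AMI arrays. The transcript was therefore read far above background on 5 arrays and at or near background on the other 7, and both states occurred in every group. The high arrays numbered 1 of 3 in hippocampal vehicle, hippocampal AMI and cortical vehicle mice, and 2 of 3 in cortical AMI mice. The gap between the states was 2.46 on the log2 scale, or 5.52-fold, against a next widest gap of 0.44, and only 2 of the 12993 probes detected on at least 6 arrays (0.0154%), Pou6f1 included, had a gap as wide. All 5 high arrays were detected, and of the 7 low arrays only hippocampal vehicle array 2 was detected, with a detection p of 0.0188 against 0.419 to 0.902 on the other 6.

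**Figure D1:**
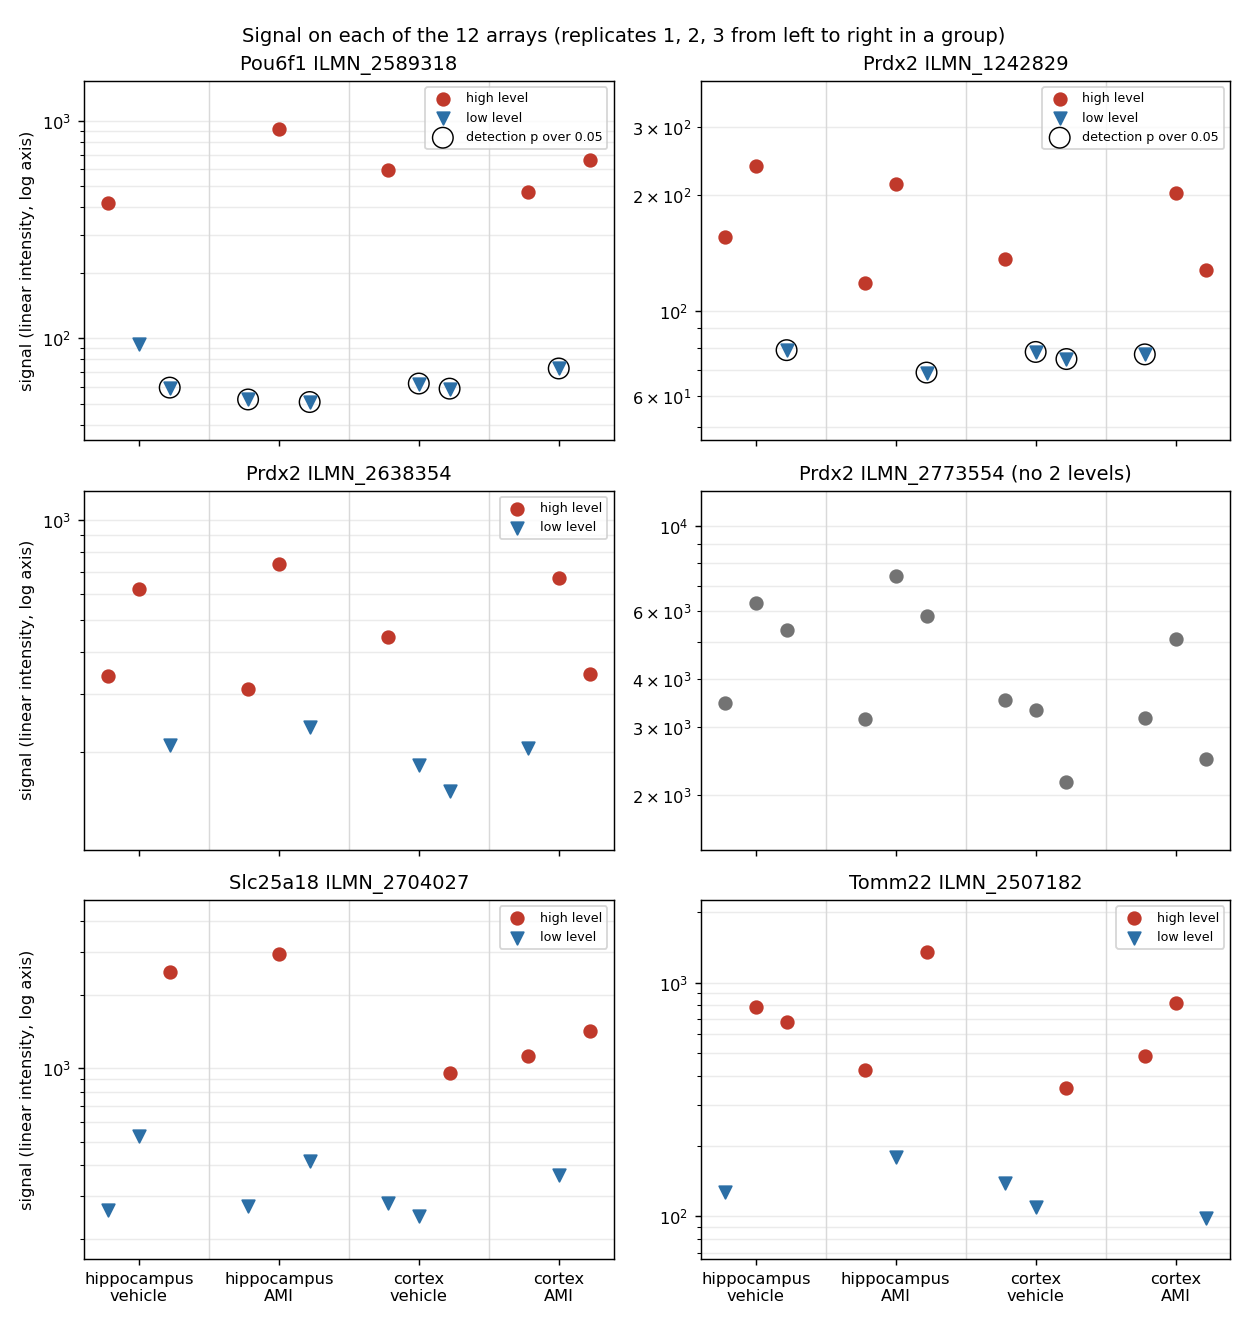
Linear signal (log axis) of the 6 probes on all 12 arrays, by tissue and treatment, with replicates 1 to 3 from left to right; red circles are high and blue triangles low arrays, rings mark arrays with a detection p over 0.05, and grey marks the inner Prdx2 probe, which had no 2 levels. High and low arrays occur in each of the 4 groups for 5 of the probes, and Pou6f1 runs from 50.9 to 916.

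The 3 Prdx2 probes did not read the same pattern. The outer probe ILMN_2638354 gave 339, 621 and 211 on hippocampal vehicle arrays 1 to 3, and 309, 736 and 238 on hippocampal AMI arrays. On cortical arrays it gave 444, 183 and 152 with vehicle, and 205, 671 and 343 with AMI. The other outer probe, ILMN_1242829, gave 155, 237 and 79.0 with vehicle and 118, 213 and 69.1 with AMI in the hippocampus, and 137, 78.2 and 74.9 with vehicle and 77.0, 203 and 128 with AMI in the cortex. Both outer probes were high on the same 7 arrays and low on the same 5 arrays, agreeing on 12 of 12. The low arrays were hippocampal vehicle array 3, hippocampal AMI array 3, cortical vehicle arrays 2 and 3, and cortical AMI array 1, so each group again held both states. The gaps were 0.87 (1.83-fold) and 0.78 (1.71-fold), which 106 (0.816%) and 139 (1.07%) of the detected probes equalled or exceeded. ILMN_1242829 was detected on all 7 high arrays and on 0 of the 5 low arrays, with detection p between 0.0965 and 0.182 on these, so its lower level is a bound set by background.

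The inner Prdx2 probe, ILMN_2773554, was bright on every array and had no such division. It gave 3480, 6325 and 5368 with vehicle and 3157, 7412 and 5849 with AMI in the hippocampus. In the cortex it gave 3541, 3331 and 2164 with vehicle and 3174, 5078 and 2479 with AMI. After normalization its 12 levels spanned 0.64 on the log2 scale, and its widest gap was 0.14, which 48.8% of detected probes equalled or exceeded. That gap set hippocampal AMI array 1 and hippocampal vehicle array 1 apart from the other 10 arrays. The same division was the widest of 735 probes (5.66%), among them Hsd3b2, Thy1, Fth1 and Irgm with gaps of 0.69 to 0.86, so these arrays differed from the rest in many genes. With both of them left out, no array changed its state at any of the 5 probes with 2 levels.

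Each outer Prdx2 probe was next set against the inner probe on the same array, as a difference of log2 levels centred on its median over the 12 arrays. For ILMN_2638354 this difference was -0.91 to -0.60 on the 5 low arrays and -0.02 to 0.76 on the 7 high arrays. For ILMN_1242829 it was -0.77 to -0.51 on the low arrays and -0.05 to 0.65 on the high arrays. The 5 arrays that were low by the outer probes were therefore also low relative to the inner probe, without overlap, while the inner probe itself varied less. These values use the arrays that defined the states and are a description.

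**Figure D2:**
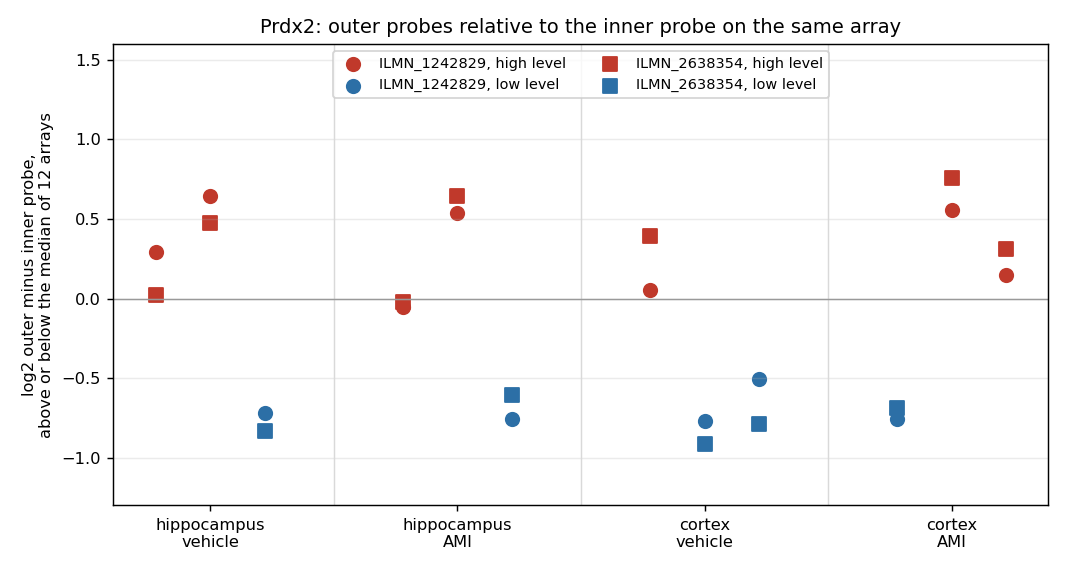
Log2 level of each outer Prdx2 probe minus that of the inner probe on the same array, centred on the median of the 12 arrays (y axis), by group (x axis, replicates 1 to 3 from left to right); circles are ILMN_1242829, squares ILMN_2638354, red high and blue low arrays. The low arrays lie between -0.91 and -0.51 and the high arrays between -0.05 and 0.76.

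Slc25a18, the mitochondrial glutamate carrier, was detected on all 12 arrays at both levels. Its signal in the hippocampus was 261, 526 and 2483 on vehicle arrays 1 to 3, and 273, 2931 and 416 on AMI arrays. In the cortex it was 281, 247 and 956 with vehicle, and 1121, 367 and 1416 with AMI. The high arrays were hippocampal vehicle array 3, hippocampal AMI array 2, cortical vehicle array 3 and cortical AMI arrays 1 and 3, the same number per group as for Pou6f1 but not the same arrays. The gap was 1.53 (2.88-fold), the next widest was 0.37, and 19 probes (0.146%) had a gap as wide. Within the low arrays the levels spanned 0.75, and within the high arrays 0.75, so each state was spread over less than the gap.

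Tomm22, the import receptor, was also detected on all arrays. Its signal was 128, 788 and 681 on hippocampal vehicle arrays 1 to 3, and 421, 179 and 1351 on hippocampal AMI arrays. In the cortex it was 139, 109 and 352 with vehicle, and 483, 818 and 98.2 with AMI. High arrays numbered 2 of 3 in hippocampal vehicle, hippocampal AMI and cortical AMI mice and 1 of 3 in cortical vehicle mice. The gap was 1.504 (2.84-fold), the next widest was 0.33, and 22 probes (0.169%) had a gap as wide. Its low level, at a signal of 98.2 to 179, was dimmer than its high level, at 352 to 1351, but stayed above detection on all 5 low arrays.

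**Figure D3:**
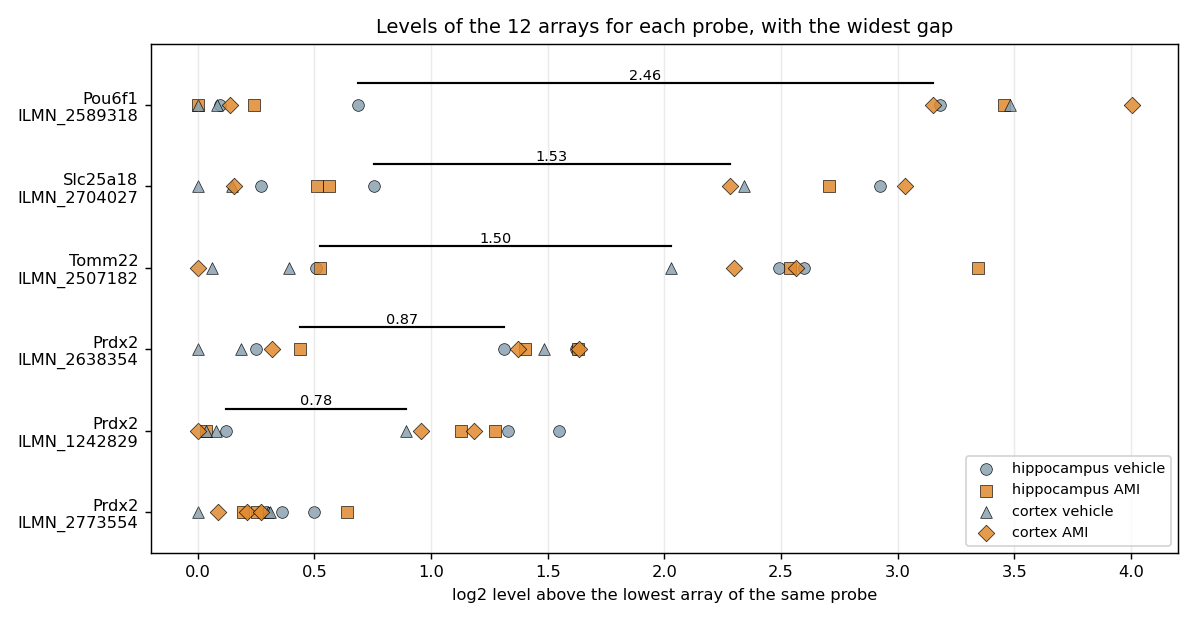
Log2 level of each array above the lowest array of the same probe (x axis) for the 6 probes (y axis), with marker shapes and colours giving tissue and treatment and a bar over the widest gap of each probe with 2 levels. The gaps run from 2.46 for Pou6f1 to 0.78 for Prdx2 ILMN_1242829, and vehicle and AMI arrays lie on both sides of each.

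The genes did not share a single division of the arrays. Pou6f1 and Tomm22, on the same chromosome, were in opposite states on 10 of 12 arrays, with cortical AMI array 1 high for both and cortical vehicle array 2 low for both. Pou6f1 and Slc25a18 were in the same state on 8 arrays, including all 6 AMI arrays, and differed on vehicle arrays 1 and 3 of both tissues. Pou6f1 and the outer Prdx2 probes were in the same state on 8 arrays as well. Prdx2 shared its state with Slc25a18 on 4 arrays and with Tomm22 on 4, and Slc25a18 with Tomm22 on 6. With 12 arrays these counts are descriptions, and their difference from one another was not tested.

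States were also followed across tissues by the replicate number in the labels. Among vehicle arrays, Pou6f1 and Slc25a18 were in the same state in the hippocampus and the cortex for 3 of 3 numbers, and the outer Prdx2 probes and Tomm22 for 2 of 3. Among AMI arrays the corresponding counts were 0 of 3 for Pou6f1 and Slc25a18 and 1 of 3 for Prdx2 and Tomm22. The labels do not say that a number marks a mouse, so these counts describe the numbering and not animals.

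Within the hippocampus, AMI and vehicle arrays were also matched by number. Their deviations from the group means across probes correlated most for number 1 (r = 0.61). For numbers 2 and 3 (r = 0.29 each) they correlated little more than those of AMI array 3 with vehicle array 2 (r = 0.28). The labels state no pairing, so these pairs are matched by number only. The outer Prdx2 probes were in the same state in 3 of 3 such pairs, high for numbers 1 and 2 and low for number 3. Within these pairs AMI minus vehicle was -0.20, -0.27 and -0.08 for ILMN_1242829, lower with AMI in 3 of 3, and 0.09, 0.0068 and 0.19 for ILMN_2638354, higher with AMI in 3 of 3. The differences of the 2 probes had opposite signs in each pair and were smaller than the gap between their levels. With the replicate number as a block neither passed by limma (SE 0.082 for each, adjusted p = 0.616 and 0.742). Pou6f1, Slc25a18 and Tomm22 were in the same state in 1 of 3 hippocampal pairs each.

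Other genes with the same division of the 12 arrays were few. For Pou6f1 there were none among the 12993 detected probes, and for each outer Prdx2 probe only the other one. For Slc25a18 there were 2, each with a narrow gap. Arpc4, a subunit of the actin-nucleating Arp2/3 complex, was higher on the same arrays (gap 0.17), and the chemokine Ccl17 was lower on them (gap 0.20). Tomm22 had a single match, Atf4, with a gap of 1.22 (2.33-fold) in the same direction. Among probes with coordinates within 5 Mb of each gene, none of 103 near Pou6f1, 57 near Prdx2, 84 near Slc25a18 and 159 near Tomm22 had the same division.

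Atf4 encodes the transcription factor through which cells raise amino acid synthesis and transport genes under stress. Its matching probe, ILMN_1223734, carries band 15qE1 like Tomm22 but no coordinates, which is why the window of 5 Mb did not hold it. In the RefSeq gene order of GRCm38.p6 it was the 16th protein-coding gene from Tomm22. Its signal in the hippocampus was 88.7, 401 and 352 on vehicle arrays 1 to 3, and 188, 126 and 652 on AMI arrays. In the cortex it was 94.3, 94.1 and 288 with vehicle, and 297, 439 and 91.7 with AMI. The low arrays (88.7 to 126) and the high arrays (188 to 652) were the same 5 and 7 arrays as for Tomm22. The longest run of bases that this 50-base probe shared with the Tomm22 probe was 6.

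Atf4 had a second probe, ILMN_2642681, which began at base 1570 of the transcript against base 553 for the first. This probe was in the same state as Tomm22 on only 7 of 12 arrays. Its signal was 1233 to 2438 in the hippocampus and 874 to 1336 in the cortex, and its widest gap, 0.23, separated the 6 hippocampal arrays from the 6 cortical arrays. As in Prdx2, one probe of the gene had 2 levels and another did not.

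**Figure D4:**
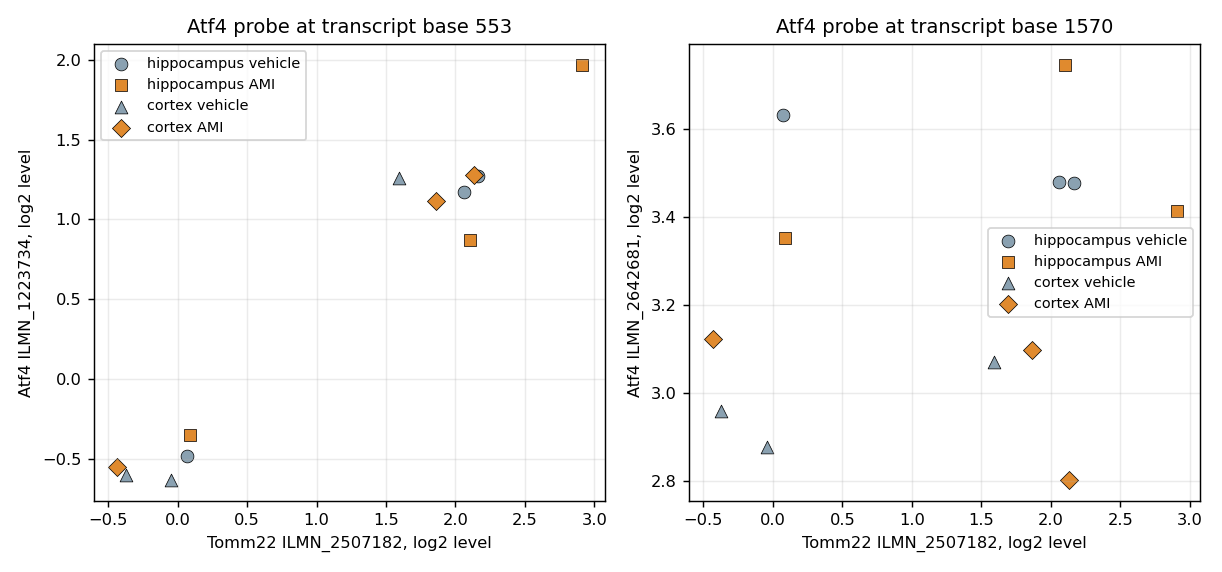
Log2 level of Tomm22 (x axis) against that of each of 2 Atf4 probes (y axis) on the 12 arrays, with markers for tissue and treatment. With the probe at base 553 the arrays form the same 2 clusters of 5 and 7, and with the probe at base 1570 the hippocampal arrays lie above the cortical ones at both Tomm22 levels.

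Neighbours in gene order, 25 protein-coding genes to each side, were also examined at a looser match, a division that differed on at most 1 array. Near Tomm22, 41 detected probes were examined, and Mgat3, a glycosyltransferase 14 genes away on 15qE1, matched on 11 arrays (gap 0.33, different on hippocampal vehicle array 1). Near Prdx2, 29 probes were examined, and Junb, an AP-1 transcription factor and the adjacent gene, was opposite to the outer Prdx2 probes on 11 arrays (gap 0.32). None of 16 probes near Pou6f1 or 30 near Slc25a18 matched in this way. Over all detected probes, 18 came this close to Pou6f1, 7 to Prdx2, 28 to Slc25a18 and 13 to Tomm22.

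The treatment question was whether AMI changed these transcripts. In the hippocampus, by limma with Benjamini-Hochberg adjustment over 13163 probes, the log2 difference of AMI minus vehicle was -0.09 (SE 1.06) for Pou6f1, -0.06 (SE 0.79) for Slc25a18 and 0.28 (SE 0.79) for Tomm22. For Prdx2 it was -0.20 (SE 0.44), 0.10 (SE 0.41) and -0.02 (SE 0.14) with ILMN_1242829, ILMN_2638354 and the inner probe. None of the 6 probes passed, at an adjusted p of 0.9996 each, and the share of all probes passing was 0% (2.35% at an unadjusted p under 0.05). Groups did not overlap for 7.89% of all probes and for none of these 6. At the 5 probes with 2 levels each group held both levels, the pattern that chose the genes, so their overlap was fixed beforehand.

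In the cortex AMI minus vehicle was 1.17 (SE 1.06) for Pou6f1, 0.94 (SE 0.75) for Slc25a18 and 0.75 (SE 0.66) for Tomm22. They were 0.36 (SE 0.31) and 0.52 (SE 0.41) for the outer Prdx2 probes and -0.01 (SE 0.11) for the inner probe. No member passed, with adjusted p between 0.881 and 0.990 by limma over 12944 probes, of which 0% passed (6.28% at an unadjusted p under 0.05). Groups were apart for 12.2% of all probes and for no member, which for the probes with 2 levels was again fixed by their choice. Pou6f1 and ILMN_1242829 were each detected on 3 cortical arrays, all of them high, and entered this fit only through these. In this tissue 2 AMI arrays and 1 vehicle array were high for each of the 4 genes, apart from the inner Prdx2 probe, so the groups differed by 1 high array. With 3 arrays per group the intervals of 2 SE ran from -0.96 to 3.30 for Pou6f1, so that changes of several fold in either tissue could not be told from 0. The standard error of Pou6f1 was exceeded by no probe in the hippocampus and by 1 in the cortex, and such a spread is what the genes were chosen for.

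**Figure D5:**
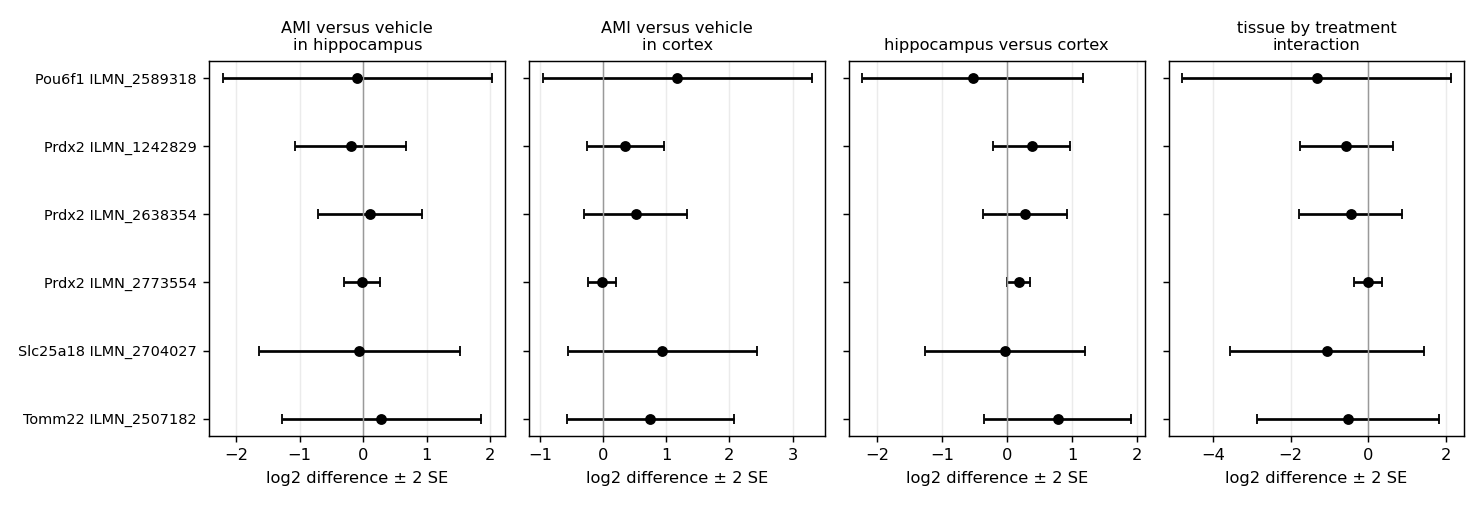
Log2 difference (points) with 2 standard errors to each side (bars) for the 6 probes in the 4 comparisons, from limma; each panel has its own x axis. Every interval crosses 0 except that of the inner Prdx2 probe between tissues (0.0019 to 0.35), and the intervals of the probes with 2 levels are the widest.

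Between tissues, 44.2% of 12993 probes differed at an adjusted p under 0.05 by limma, and none of the 6 member probes did. The genes were chosen for 2 levels among arrays of the same treatment and tissue. Apart from the inner Prdx2 probe, a wide spread and overlapping groups came with that choice. The shares of all probes are therefore given as background only. At an unadjusted p under 0.05 the share of all probes was 51.0% and again no member passed, and hippocampal and cortical arrays did not overlap for 22.7% of probes and for no member. Hippocampus minus cortex was -0.53 (SE 0.85) for Pou6f1, -0.04 (SE 0.61) for Slc25a18 and 0.78 (SE 0.57) for Tomm22. For Prdx2 it was 0.38 (SE 0.30) and 0.28 (SE 0.32) with the outer probes and 0.18 (SE 0.09) with the inner probe. Adjusted p was 0.117 for the inner Prdx2 probe and 0.289 to 0.968 for the others. The inner probe passed under quantile normalization (0.33, adjusted p = 8.47e-04), median centring (0.79, adjusted p = 0.00234) and background correction with quantile normalization (0.33, adjusted p = 0.00290). The tissue by treatment interaction, hippocampus minus cortex, was between -1.33 (Pou6f1, SE 1.73) and -0.01 (inner Prdx2 probe, SE 0.18), with an adjusted p of 0.9999 for each member and 0% of all probes passing (3.09% at an unadjusted p under 0.05).

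Taken by group means of the level, cortical AMI arrays ranked highest for Pou6f1 (1.105 ± 2.03, SD, n = 3) and Slc25a18 (2.70 ± 1.49), hippocampal AMI arrays for Tomm22 (1.701 ± 1.45) and ILMN_2638354 (1.38 ± 0.63), and hippocampal vehicle arrays for ILMN_1242829 (0.03 ± 0.77) and the inner Prdx2 probe (4.93 ± 0.10). Cortical vehicle arrays ranked lowest for 5 of the probes and next to lowest for the inner Prdx2 probe. For the 5 probes with 2 levels all 6 pairs of groups overlapped, which their choice had fixed, so no order of the groups exceeded the spread between arrays. For the inner Prdx2 probe 5 of 6 pairs overlapped. The pair apart was hippocampal vehicle (4.84 to 5.05) and cortical AMI (4.63 to 4.82), which differ in both tissue and treatment.

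Among close relatives of the 4 genes, Prdx1 and Tomm70a were measured above background and had narrower gaps than Prdx2 and Tomm22. Prdx1, a cytosolic peroxiredoxin like Prdx2, was detected on 12 arrays with one probe (signal 1960 to 5504, widest gap 0.07) and on 0 with another. Tomm70a, a TOM receptor for carrier proteins, was detected on 12 arrays (157 to 331, gap 0.43). Tomm40, the pore of the TOM complex, and Slc25a22, another mitochondrial glutamate carrier, were detected on 0 arrays, and no probe carried the symbol Tomm20.

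In lists of related genes that include the 4 genes themselves, none passed between AMI and vehicle in either tissue or in the interaction. Between tissues, 4 of 11 tested genes of peroxiredoxins and the thioredoxin system were higher in the hippocampus and 3 were lower, beside 25.1% and 19.0% of all probes, with a median difference of 0.05 against 0.03 for all. Txn1, thioredoxin itself, was higher by 0.57 (SE 0.09, limma adjusted p = 1.41e-04). Its probe was dim, at a mean level of 0.13 in the hippocampus and -0.43 in the cortex, the latter near background. Prdx5 (0.37) and the thioredoxin inhibitor Txnip (0.35) were also higher, while Prdx4, the peroxiredoxin of the endoplasmic reticulum, was lower at -0.33. Of 12 tested genes of mitochondrial protein import, 5 were higher and 1 lower, with a median of 0.30. The largest of these differences were in Timm10, a chaperone of the space between the mitochondrial membranes (0.79, SE 0.13), the cytosolic cochaperone Tomm34 (0.51), Tomm70a (0.49) and Timm50 of the inner membrane translocase (0.36).

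Of 8 tested glutamate carriers and enzymes, 1 was higher in the hippocampus and 3 were lower, with a median of -0.09. Over all probes 25.1% were higher and 19.0% lower, which is the share to set beside this list and the POU factors. Glutamine synthetase, Glul, was higher by 0.53, with a dim probe at a mean level of -0.0060 in the hippocampus and -0.53 in the cortex. The Tomm22 signal of 98.2 on cortical AMI array 3 had a level of -0.43, so the cortical Glul level was near background. The mitochondrial enzymes Got2 (-0.58) and Glud1 (-0.53) and the astrocytic glutamate transporter Slc1a2 (-0.29) were lower. Of 5 tested POU factors 2 were higher, Pou3f1 by 1.03 (SE 0.09) and Pou2f1 by 0.26, with a median of 0.07, and 9 of the 14 listed were not tested. The highest widest gap among these named genes was 0.52, in Pou3f1. A difference between tissues is at the same time a difference between exports here.

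Markers of other cell types were compared with the states, because in bulk tissue fewer cells of a type and less RNA per cell cannot be told apart. The mean level of 7 tested markers (of 8) of astrocytes, the cells that use Slc25a18 most, spanned 3.19 to 3.59 over the 12 arrays. It divided at a narrow gap of 0.12, which set only the hippocampal arrays numbered 1 apart, as for the inner Prdx2 probe. By that division it was in the same state as Slc25a18 on 5 arrays, a count that cannot show whether astrocyte content followed Slc25a18. The mean of 3 tested red cell markers out of 5 (Bpgm and Slc4a1 were not tested), chosen because red cells hold much Prdx2, spanned 1.36 to 3.42, divided at a gap of 0.19 and was in the same state as the outer Prdx2 probes on 3 arrays and as Tomm22 on 9. It was opposite to Pou6f1 on 11 of 12 arrays, at 1.36 to 1.72 on the 5 arrays high for Pou6f1 and, on the 7 low ones, at 1.49 on hippocampal vehicle array 2 and 1.91 to 3.42 on the others. The part of red cells in the Pou6f1 levels was not tested. For the markers of oligodendrocytes, microglia, endothelium, choroid plexus and neurons, between 4 and 8 of 12 arrays were in the same state as each probe with 2 levels.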

How the data were processed

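The authors deposited, for each array, the mean bead signal of each probe as a linear intensity and a detection p-value. These were exported by BeadStudio 3.4 (hippocampus) and GenomeStudio 1.1.1 (cortex) with no normalization per the file headers. For z normalization, which the study's methods name, the mean log2 intensity of an array was subtracted, and the result was divided by that array's SD and rescaled by the average SD over arrays. Arrays were grouped by their titles. Probes detected on at least 3 of 6 arrays (within a tissue) or 6 of 12 were tested by the lmFit and eBayes functions of limma (3.58.1, R 4.3.3) with Benjamini-Hochberg adjustment, after a check on simulated data. The number of arrays limits the precision. The genes, the lists and the rule for other named genes (same division of the arrays, neighbours, relatives, and the largest differences in each list) were chosen with earlier results of these data known. Some genes that this rule names are not reported here. Within the hippocampus the deviations of same-numbered AMI and vehicle arrays from their group means correlated (r = 0.61, 0.29 and 0.29). Among unlike-numbered arrays r was 0.28 for AMI 3 with vehicle 2 and 0.17 for AMI 2 with vehicle 3. With 1 array numbered 1 it was -0.47 to -0.33. Only the arrays numbered 1 stood out, so a pairing by numbers 2 and 3 is not shown. The fits reported are without pairing, as in the study's methods, and the fit with the replicate number as a block was an alternative. RefSeq matched the 4 symbols and gave gene order only. Python 3.11.15 with pandas 2.3.3 was used for tables and matplotlib 3.10.9 for figures.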

Additional observations from a re-analysis of the deposited data

How the results depend on the processing

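The 5 probes with 2 levels kept the state of every array under quantile normalization, median centring, background correction with quantile normalization (neqc, offset 16), removal of tissue means, a minimum of 1 or 3 arrays on each side, and leaving out any array or both hippocampal arrays numbered 1. The exception was Prdx2 ILMN_2638354 on log2 intensities as deposited, where 4 arrays changed state (gap 0.48). For the levels, leaving out arrays was chosen after seeing the data, as were the fits without both hippocampal arrays numbered 1 and the use of gene order. Under neqc the gap of Prdx2 ILMN_1242829 was 1.57. No treatment difference of a member passed under any alternative run. The number of probes passing between AMI and vehicle was 0 to 1 when an array was left out in the hippocampus (1 without AMI replicate 2) and in the cortex (1 without AMI replicate 3), and 2 in the cortex under neqc and with trend and robust variances. Between tissues it was 5738, and 4539 to 6192 under the alternatives, and for the interaction 0 under each. With the replicate number as a block the counts were 0, 0, 5470 and 0, and no member's call changed, while the SE in the hippocampus fell from 0.44 to 0.082 for Prdx2 ILMN_1242829 (adjusted p = 0.616 by limma) and from 0.41 to 0.082 for ILMN_2638354 (adjusted p = 0.742). In the cortex same-numbered arrays did not all correlate (r = -0.06, 0.33 and 0.33), so the numbers are shared there without a known pairing either.

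Median centring moved the median of all probes between tissues from 0.03 to 0.20. Some small log2 differences changed sign. Under median centring these were, in the hippocampus, Pou6f1 (0.085), Slc25a18 (0.050) and the inner Prdx2 probe (0.13), the last also in the cortex (0.13) and the interaction (0.0066), and Slc25a18 between tissues (0.38). Under quantile normalization they were the inner Prdx2 probe in the hippocampus (0.037) and the cortex (0.089) and Slc25a18 between tissues (0.010), and under neqc the same (0.037, 0.092 and 0.024). Without both hippocampal arrays numbered 1 they were Pou6f1 (1.49) and Tomm22 (-0.68) in the hippocampus, Slc25a18 between tissues (0.40) and Pou6f1 in the interaction (0.10).

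Leaving out each array in turn gave differences in the hippocampus of -1.24 to 0.91 for Pou6f1, -0.66 to 0.21 for Prdx2 ILMN_1242829, -0.33 to 0.48 for ILMN_2638354, -0.17 to 0.063 for the inner probe, -0.81 to 0.79 for Slc25a18 and -0.44 to 1.12 for Tomm22. In the cortex it gave -0.11 to 0.037 for the inner Prdx2 probe, and without a change of sign 0.44 to 2.25 for Pou6f1, 0.13 to 0.69 for ILMN_1242829, 0.26 to 0.95 for ILMN_2638354, 0.37 to 1.68 for Slc25a18 and 0.30 to 1.53 for Tomm22. Between tissues it gave -1.02 to -0.097 for Pou6f1 and -0.45 to 0.29 for Slc25a18, and in the interaction -0.15 to 0.093 for the inner Prdx2 probe and -1.35 to 0.28 for Tomm22. The cause of these changes was not tested. The headers name no chip, so a fit with the chip as a block was not run. Signals near background limit the low levels of Pou6f1 and Prdx2 ILMN_1242829. The low levels of Atf4 ILMN_1223734 (signal from 88.7) and Tomm22 (from 98.2) were detected but dim, so they lie near background too.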
